A study of Homo sapiens with 6 samples.

Results

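Antisense genes are non-coding genes that lie on, or close to, the opposite strand of another gene, and the group described here holds the well counted ones of MDA-MB-231-DR cells. Members were chosen from the deposited table as genes typed antisense with a mean over the 6 libraries of at least 5 CPM (the count scaled to the summed gene counts of a library). The host genes of small nucleolar RNAs (GAS5, ZFAS1, EPB41L4A-AS1 and the SNHG genes) were left out. This gave 181 of the 58302 genes of the table, out of 5448 genes typed antisense. The members were selected on their mean level, so a member that was low in one group could only enter by being high in the other, and counts of changed members are given below as a description. The 3 members just inside the limit were LRRC8C-DT at 5.05, AL161421.1 at 5.04 and AC004812.2 at 5.03 CPM, and the 3 genes just outside it were C10orf25 at 4.97, FOXN3-AS1 at 4.92 and THAP7-AS1 at 4.89 CPM.

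MDA-MB-231 is an established line of triple-negative breast cancer, and MDA-MB-231-DR is its doxorubicin-resistant derivative. By the study's methods the resistant cells were kept in medium with a low concentration of doxorubicin, so both groups share that background. The 3 control libraries came from MDA-MB-231-DR cells without further treatment, and the 3 CYT libraries from the same cells treated with cyperotundone (CYT), a compound of sedge plants. The dose and time of CYT for these libraries are not given in the sources used here. The study's methods describe data in general as means of independent experiments, but do not say for the sequenced libraries whether the replicates of a group were separate cultures, so p-values measure the spread between these libraries, which may be technical. Summed gene counts ran from 13056270 to 17770102 per library.

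Antisense transcripts can arise from their own promoters or, as divergent transcripts, from the promoter of a neighbouring coding gene that is read in both directions. Many of the latter are short-lived, since early poly(A) signals end them and the nuclear RNA exosome degrades them with its adaptor complexes. Others are stable, spliced RNAs that have been studied as regulators of the gene they overlap. In bulk RNA a lower value cannot tell fewer cells with a transcript from less of it per cell.

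Transcript ends are shown for members of large rise or fall that held a poly(A) signal, the sequence upstream of the site where such RNAs are cut. The last 60 bases of the longest transcript of the gene in GENCODE 29 (GRCh38) are given 5′ to 3′, with the signal (AATAAA or ATTAAA, searched on the transcript strand) in capitals. The first 4 belong to members that rose with CYT and the last 2 to members that fell. The windows lie at chr12:64451591-64451650 (-), chr6:149718829-149718888 (+), chr6:63571005-63571064 (-), chr4:112229561-112229620 (-), chr20:62663031-62663090 (-) and chr15:73917596-73917655 (-), in this order.
AC135279.3: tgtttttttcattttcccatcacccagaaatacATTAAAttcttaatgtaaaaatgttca
AL358852.1: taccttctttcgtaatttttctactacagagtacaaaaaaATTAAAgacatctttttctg
AL135905.1: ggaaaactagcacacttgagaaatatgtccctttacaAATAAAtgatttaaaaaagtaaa
AC109347.1: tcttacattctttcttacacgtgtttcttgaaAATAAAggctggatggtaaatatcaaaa
SLCO4A1-AS1: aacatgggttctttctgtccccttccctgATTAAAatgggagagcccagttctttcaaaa
LOXL1-AS1: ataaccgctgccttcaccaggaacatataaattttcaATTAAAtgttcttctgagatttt

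A signal was found in this window for 109 of the 181 members (60.2%), against 78.1% of 10564 coding genes at 5 CPM or more and 42.6% of 5263 antisense genes under 5 CPM. It was present in 62 of the 100 members called higher, 5 of the 9 called lower and 42 of the 72 not called. Of the members with the largest rises, AL139099.1 and AC006449.5 held none, and of those with the largest falls VPS9D1-AS1, AC067852.2, ABALON and SNAI3-AS1 held none. A match describes these letters only and is not a measured site of cleavage.

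CYT and control were compared by edgeR (quasi-likelihood test) in the 15572 genes left by a filter on low counts, and a gene was called at a Benjamini-Hochberg adjusted p under 0.05. All 181 members were tested. With CYT 100 members (55.2%) were called higher and 9 (4.97%) lower, while 72 were not called. The background over all tested genes was 15.7% higher and 12.9% lower. Among protein-coding genes at the same mean level of 5 CPM it was 10.4% higher and 15.6% lower, among 121 lincRNA genes at that level 44.6% higher and 4.13% lower, and among 576 tested antisense genes under the level 49.1% higher and 2.43% lower. The median log2 fold change of the members was 1.44, against 0.0064 over all tested genes, and it does not depend on whether the single member with empty controls is taken at its fitted value or its bound. The groups did not overlap, with every CYT library above or below every control library, in 113 members that were higher and 11 that were lower, beside 23.4% and 22.7% of all tested genes.

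The mean level that chose the members bears on these counts. In 79 members every control library was under 5 CPM, and 73 of these were called higher and 6 were not called. Of the 10567 protein-coding genes at the same mean level, 249 (2.36%) had every control library under 5 CPM, and 219 of these (88.0%) were called higher. In the 61 members with at least 5 CPM in every control library, 10 (16.4%) were called higher, 9 (14.8%) lower and 42 were not called, with a median log2 fold change of -0.06. Protein-coding genes held to the same condition were called higher in 7.79% and lower in 16.9% of 9727 genes. In the 52 members with at least 5 CPM in every one of the 6 libraries, 10 were called higher, 2 lower and 40 were not called, with a median log2 fold change of 0.13. In the 154 members with at least 5 CPM in every CYT library, 97 were called higher, 2 lower and 55 were not called. Each of these conditions uses the level in a group that the test compares, so the counts move with the condition and do not place the rises in one kind of member.

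**Figure D1:**
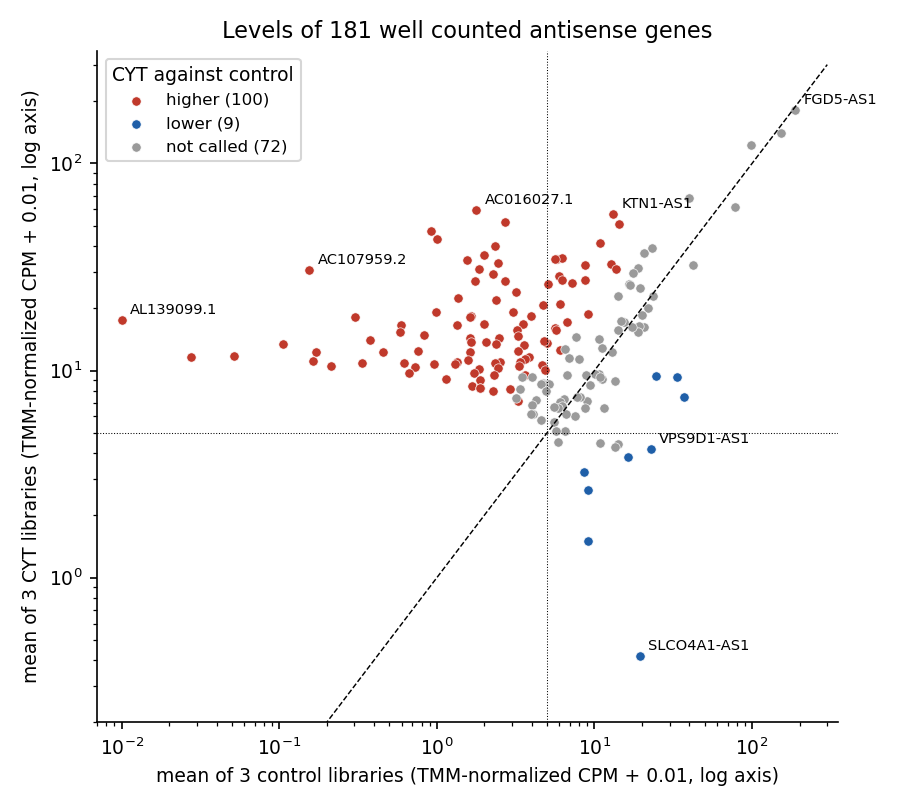
Mean TMM-normalized CPM (plus 0.01, log axes) of each of the 181 members in 3 control libraries (x axis) and 3 CYT libraries (y axis), coloured by call, with dotted lines at 5 CPM and a dashed line of equal level. The 100 members called higher spread to the left over low control levels, and the 9 called lower lie below the dashed line.

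The share of all gene counts that fell on members rose from 0.166%, 0.188% and 0.178% in the control libraries to 0.344%, 0.345% and 0.334% in the CYT libraries. Every CYT library lay above every control library. The mean shares were 0.177% ± 0.0110 (SD, n = 3) and 0.341% ± 0.00607 (SD, n = 3), given with no test because the same levels chose the members. The 72 members that were not called took 0.120% to 0.136% of the counts in control and 0.130% to 0.153% in CYT libraries. The 10 members of highest mean CPM made up 35.9% to 37.5% of the member counts in control and 21.8% to 26.2% in CYT libraries.

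SLCO4A1-AS1 (ENSG00000232803, chr20:62663019-62666724, GRCh38, minus strand) had the largest fall. It lies within SLCO4A1, an organic anion transporter gene, and shares 346 exonic bases with it. The TMM-normalized level was 22.6, 10.6 and 24.9 CPM in control and 0.635, 0.356 and 0.238 CPM in CYT libraries. Every CYT library lay far below every control library. The log2 fold change was -5.52 ± 0.54 (SE), with an edgeR adjusted p of 0.000445. SLCO4A1 itself fell from a mean of 4.31 to 0.484 CPM, with a log2 fold change of -3.12 ± 0.48 (SE) and an adjusted p of 0.00202. Per length, SLCO4A1-AS1 stood at 924% of the level of SLCO4A1 in control and at 185% in CYT, and the ratio did not overlap between the groups. The CYT value rests on few reads, with 9, 5 and 3 counts of SLCO4A1-AS1 and 6, 10 and 4 counts of SLCO4A1.

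AL139099.1 (ENSG00000258377, chr14:49620815-49623480, minus strand) had the largest fitted rise. It lies within MGAT2, which encodes a Golgi enzyme of N-glycan branching, and all of its 2469 exonic bases in GENCODE 29 are shared with exons of MGAT2. No control library held a count, and the CYT libraries held 298, 43 and 357 counts, or 21.0, 3.06 and 28.4 CPM. CYT replicate 2 was the low library of its group and still lay above all controls. Against a floor of 3 counts per library (0.187 CPM) AL139099.1 was at least 93.4-fold higher with CYT, and the edgeR adjusted p was 0.0019. MGAT2 stood at 78.4, 97.1 and 92.6 CPM in control and at 154, 203.1 and 117 CPM in CYT libraries, which did not overlap. Its log2 fold change was 0.82 ± 0.30 (SE), with an adjusted p of 0.0689, and of 0.0356 with the replicate number as a block.

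Further members were almost uncounted in control cells. AC108673.2, within the readthrough gene ISY1-RAB43 and without shared exonic bases, had 1 count in all control libraries and 475 in the CYT libraries, at 11.6, 10.5 and 12.9 CPM. The ratio was 568, with a 95% counting interval of 101 to 22500, and the adjusted p was 0.000287. AC135279.3, which overlaps the start of the innate immune kinase gene TBK1, had 2 counts against 474, a ratio of 283 with a counting interval of 78.0 to 2350. Its CYT libraries stood at 14.6, 5.13 and 15.5 CPM, all above the controls. TBK1 went from a mean of 22.0 to 12.2 CPM with overlapping groups and an adjusted p of 0.14, and of 0.0231 with the replicate block. Leaving out CYT replicate 2 gave TBK1 an adjusted p of 0.0121.

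AC107959.2, at the start of TNFRSF10B, the gene of a death receptor for the ligand TRAIL, stood at 0.186, 0.106 and 0.144 CPM in control and 20.2, 43.2 and 28.3 CPM in CYT libraries. The groups were far apart, with a log2 fold change of 7.65 ± 0.53 (SE) and an adjusted p of 0.000188. TNFRSF10B rose as well, from a mean of 106 to 234 CPM, with a log2 fold change of 1.14 ± 0.28 (SE) and an adjusted p of 0.0142, which went to 0.0813 without control replicate 3. Per length AC107959.2 stood at 0.504% of TNFRSF10B in control and at 38.4% in CYT. This pair shares no exonic bases in GENCODE 29.

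The remaining large rises had coding partners or neighbours that did not pass the test. AC006449.5, at the start of the Polycomb gene PCGF2, rose by a log2 fold change of 6.94 ± 0.71 (SE, adjusted p 0.00049), from a mean of 0.0950 to 13.4 CPM. PCGF2 had a log2 fold change of 0.70 with an adjusted p of 0.208, which was 0.0482 with the replicate block and 0.0473 without CYT replicate 2. AL358852.1, at the start of the Hippo kinase gene LATS1, rose from 0.160 to 12.3 CPM with a log2 fold change of 6.17 ± 0.50 (SE, adjusted p 0.000302), beside -0.24 for LATS1. AL135905.1, within the phosphatase gene PTP4A1 and without shared exons, rose from 0.154 to 11.1 CPM, a log2 fold change of 6.04 ± 0.71 (SE, adjusted p 0.000748). AC109347.1 overlaps no coding gene and lies 141 bp from AP1AR, and rose from 0.292 to 18.2 CPM, a log2 fold change of 5.94 ± 0.64 (SE, adjusted p 0.000546). In all 8 members of largest rise, every CYT library lay above every control library.

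**Figure D2:**
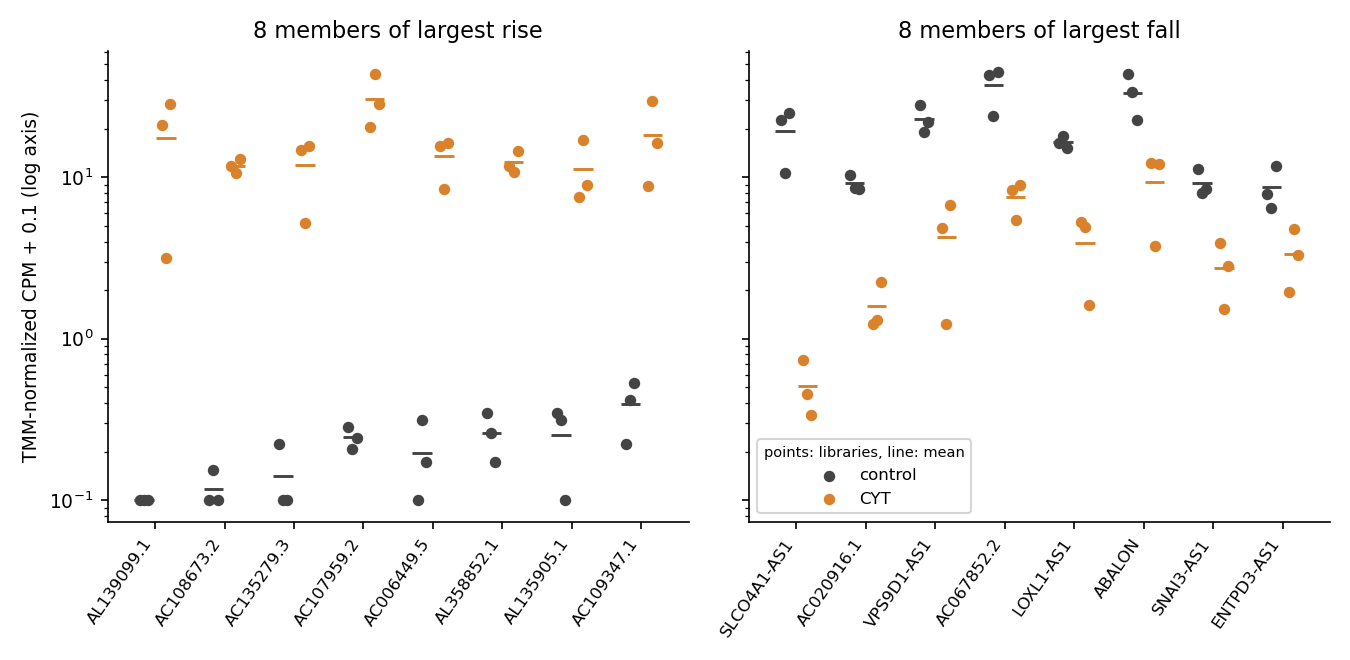
TMM-normalized CPM plus 0.1 (log axis) in the 3 control and 3 CYT libraries for the 8 members of largest rise (left) and the 8 of largest fall (right), where points are libraries and lines are group means. The rising members lie below 0.5 CPM in every control library, and the falling members separate with less distance except SLCO4A1-AS1, which goes from a mean of 19.4 to 0.410 CPM.

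Members that fell were counted well in control cells. VPS9D1-AS1, within the endosomal gene VPS9D1, stood at 27.8, 18.9 and 21.8 CPM in control and 4.72, 1.14 and 6.59 CPM in CYT libraries. The groups did not overlap, with a log2 fold change of -2.46 ± 0.55 (SE) and an adjusted p of 0.00978, while VPS9D1 went from 14.3 to 17.5 CPM with an adjusted p of 0.643. AC067852.2, within HSD17B1, the gene of an estradiol-forming dehydrogenase, fell from a mean of 37.1 to 7.45 CPM, a log2 fold change of -2.31 ± 0.37 (SE, adjusted p 0.00238). HSD17B1 had a log2 fold change of -0.16 and an adjusted p of 0.866. AC020916.1, whose deposited locus lies 2286 bp from ZSWIM4 while its longest GENCODE 29 transcript ends within that gene on the opposite strand, fell from 9.07 to 1.495 CPM (log2 fold change -2.60 ± 0.41, SE, adjusted p 0.00211), while ZSWIM4 was called higher at 1.59.

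LOXL1-AS1, opposite the start of LOXL1, a gene of elastin cross-linking, stood at 16.2, 17.9 and 15.0 CPM in control and at 5.15, 4.84 and 1.51 CPM in CYT libraries. It fell by 2.09 ± 0.46 (SE) on the log2 scale with an adjusted p of 0.0087, and LOXL1 had a mean of 17.9 CPM in both groups. ABALON, an RNA within BCL2L1, the gene of the survival protein BCL-XL, fell from 33.2 to 9.25 CPM, with a log2 fold change of -1.84 ± 0.48 (SE) and an adjusted p of 0.019. BCL2L1 fell with it, from 314 to 54.1 CPM, a log2 fold change of -2.53 ± 0.41 (SE) and an adjusted p of 0.00245. The 2 genes share 1424 exonic bases, 74.8% of the exonic length of ABALON.

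SNAI3-AS1, which spans the Snail family gene SNAI3, fell from 9.12 to 2.65 CPM (log2 fold change -1.78 ± 0.43, SE, adjusted p 0.0135), and ENTPD3-AS1, which spans the ectonucleotidase gene ENTPD3, from 8.55 to 3.24 CPM (-1.40 ± 0.44, SE, adjusted p 0.0408). Without control replicate 1 the adjusted p was 0.0676 for ABALON, 0.0503 for SNAI3-AS1 and 0.0763 for ENTPD3-AS1. ENTPD3-AS1 also missed the threshold without control replicate 3 (0.147), CYT replicate 1 (0.122) or CYT replicate 3 (0.106). The ninth member called lower was DLEU2, a host of microRNAs, at 14.8, 40.5 and 18.1 CPM in control and 6.91, 11.8 and 9.54 CPM in CYT libraries, with an adjusted p of 0.0415. Control replicate 2 was its high library, and DLEU2 missed the threshold without control replicate 2 (log2 fold change -0.83 in place of -1.38, adjusted p 0.14), control replicate 3 (0.0594), CYT replicate 1 (0.126) or CYT replicate 3 (0.106). Of the called members, 82 of the 100 that were higher and 5 of the 9 that were lower were also called with each single library left out.

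Most of the 10 members with the highest mean CPM did not pass the test. FGD5-AS1, the most counted, stood at 142.5, 256 and 167 CPM in control and 165, 230.2 and 149 CPM in CYT libraries, which overlapped, with a log2 fold change of -0.06 ± 0.33 (SE). MIF-AS1, which overlaps the end of the cytokine gene MIF and shares 687 exonic bases (46.5% of its own) with it, stood at 165, 80.4 and 213 CPM in control and 214, 27.1 and 179 CPM in CYT libraries. CYT replicate 2 was the low library there, as replicate 2 was in control, and the groups overlapped. AFAP1-AS1, AC011603.2 (opposite the tubulin gene TUBA1B), AGAP2-AS1 and AC027307.2 (within the APC family gene APC2) had log2 fold changes from -0.39 to 0.75 with adjusted p from 0.211 to 0.611, and AC027307.2 had 1.10 with an adjusted p of 0.0149 without CYT replicate 2. PINK1-AS, opposite the mitophagy kinase gene PINK1, had means of 39.8 and 68.0 CPM in groups that did not overlap, with an adjusted p of 0.0877, and of 0.032 with the replicate block.

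The coding partners FGD5, AFAP1 and AGAP2 of these abundant RNAs changed where the antisense gene did not pass the test. FGD5 had no control count and stood at 1.20, 3.49 and 1.67 CPM in CYT libraries, at least 11.3-fold higher (adjusted p 0.00237). AFAP1, an actin-binding adaptor gene, fell from 32.6 to 6.70 CPM (log2 fold change -2.28 ± 0.33, SE, adjusted p 0.00153), while AFAP1-AS1 had a mean of 99.0 CPM in control and 122 in CYT. AGAP2, a gene of an Arf GTPase-activating protein, fell from 28.9 to 2.29 CPM (log2 fold change -3.65 ± 0.41, SE, adjusted p 0.000635), and AGAP2-AS1 stood at 42.4 and 32.4 CPM. Per length AGAP2-AS1 was thus at 935% of AGAP2 in control and at 8251% in CYT, with no overlap of the ratio.

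The other 3 of the 10 rose. KTN1-AS1, opposite the start of the kinectin gene KTN1, stood at 13.5, 13.7 and 12.1 CPM in control and 53.8, 64.7 and 52.2 CPM in CYT libraries. The replicates were close and the groups far apart, with a log2 fold change of 2.12 ± 0.29 (SE) and an adjusted p of 0.00124, while KTN1 had -0.57 and an adjusted p of 0.257. NNT-AS1, at the start of the mitochondrial transhydrogenase gene NNT, rose from 13.6, 16.9 and 12.2 CPM to 26.9, 86.4 and 40.5 CPM, and NNT rose as well, by a log2 fold change of 1.15 ± 0.35 (SE, adjusted p 0.0358). The adjusted p of NNT-AS1 was 0.0128, and 0.0534 without control replicate 1 and 0.0624 without control replicate 3. AC016027.1, at the start of the peroxisome gene PEX26, rose from 1.61, 2.77 and 0.935 CPM to 58.3, 55.2 and 64.2 CPM, a log2 fold change of 5.04 ± 0.45 (SE, adjusted p 0.00033), beside 0.28 for PEX26.

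KTN1-AS1 and NNT-AS1 were 2 of the 10 members that rose from at least 5 CPM in every control library. The others were GABPB1-AS1, THUMPD3-AS1, PTOV1-AS1, LBX2-AS1, AC139530.1, AL359915.2, EXOC3-AS1 and SREBF2-AS1, named for that count after their values were seen, with log2 fold changes between 1.04 and 1.92. Of the 10 members, 8 overlap the start of their coding gene.

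Of the 181 members, 162 overlap a protein-coding locus, and the partner was taken as the coding gene sharing the most bases. In GENCODE 29, 140 of these share exonic bases with the partner. The strand used in counting is not given in the sources used here, so reads from a member and from its partner in shared exons cannot be told apart. In AC011603.2, which shares 80.2% of its exonic bases with TUBA1B, the level per length was 4.66% of that of TUBA1B in control and 4.26% in CYT. AL139099.1 had no count in control libraries that held MGAT2 at 78.4 to 97.1 CPM. Of the 22 overlapping members without shared exonic bases, 12 were called higher and 10 were not called. Of the 140 with shared exonic bases, 75 were called higher and 8 lower. The difference was not tested.

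In 150 pairs both genes were tested. The 149 distinct coding partners were called higher in 25 (16.8%) and lower in 24 cases (16.1%), beside 10.4% and 15.6% of coding genes at 5 CPM or more, with a median log2 fold change of -0.0032. Of the members that rose, 15 had a partner that rose as well, 56 a partner that was not called, 10 a partner that fell and 6 one that was not tested. Of the members not called, 10 had a partner that rose and 13 one that fell. Over the 150 pairs, which share the same 6 libraries, the log2 fold changes of antisense and coding gene had a Pearson correlation of 0.2075 and a Spearman correlation of 0.256, given as a description across genes.

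The ratio of antisense to coding FPKM, compared per library with a count offset of 0.5, was higher in every CYT than in every control library in 89 pairs and lower in 10. The background over 589 pairs of all tested antisense genes and their partners was 55.3% higher and 6.79% lower, so the 59.3% and 6.67% of the members lie near it. The median member stood at 46.7% of its partner per length in control and at 128.2% in CYT. In control the antisense gene lay below its partner in 108 of 150 pairs, and with CYT in 70. The median difference of the log2 fold changes, antisense minus coding, was 1.38, and 117 of 150 members had the larger log2 fold change of the pair. These medians and counts rest on the levels that chose the members, and 79 of the 181 had every control library under 5 CPM. They are a description, with no background over other antisense genes beside them.

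**Figure D3:**
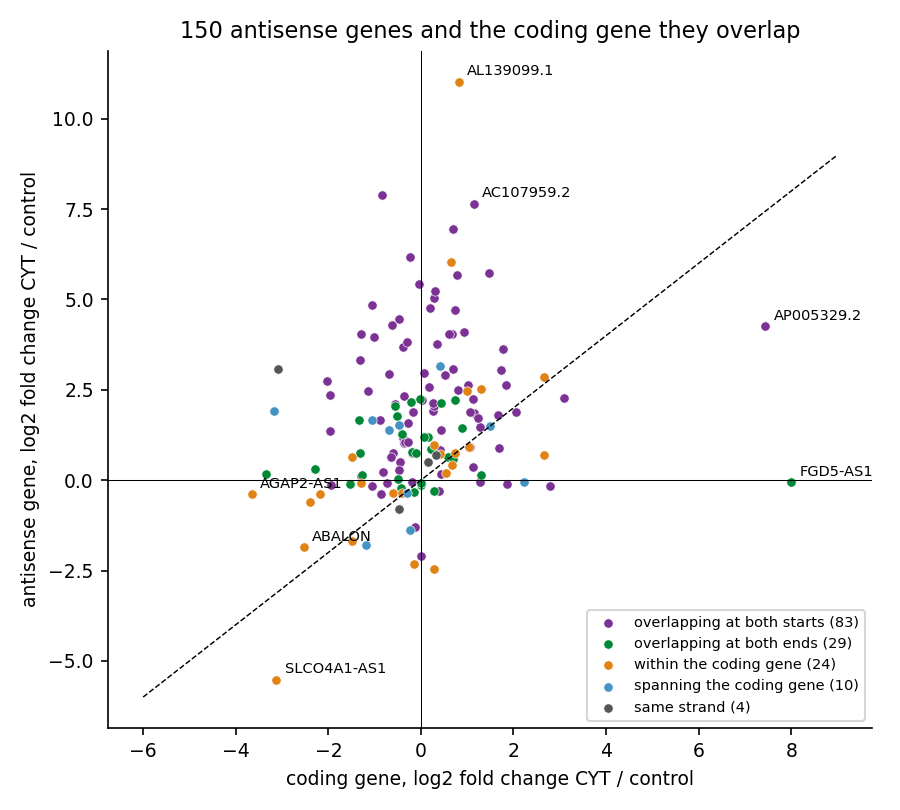
Log2 fold change (CYT over control) of 150 members (y axis) against that of the coding gene they overlap (x axis), coloured by the position of the antisense gene, with a dashed line of equal change. Most points lie above the dashed line (117 of 150), and the purple points of genes that overlap at both starts reach high on the y axis with coding changes spread around 0.

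In 10 pairs the antisense gene rose and the coding gene fell. PRKAR2A-AS1, head to head with PRKAR2A, the gene of a regulatory subunit of protein kinase A, rose from 0.868, 0.799 and 0.575 CPM to 14.7, 13.2 and 9.54 CPM (log2 fold change 4.04 ± 0.41, SE, adjusted p 0.000469). PRKAR2A fell from 124, 183 and 121 CPM to 62.7, 64.3 and 47.8 CPM (-1.29 ± 0.31, SE, adjusted p 0.0123). Neither gene overlapped between the groups. CTBP1-DT rose from 2.48, 1.49 and 4.10 CPM to 31.7, 20.6 and 28.8 CPM (3.33 ± 0.44, SE, adjusted p 0.00113), and CTBP1, the gene of a transcriptional corepressor, fell from a mean of 144.5 to 58.4 CPM (-1.31 ± 0.37, SE, adjusted p 0.0264). Per length, CTBP1-DT went from 1.83% to 51.6% of CTBP1.

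EXOC3-AS1 starts 2 bp from the start of the exocyst gene EXOC3. The antisense gene stood at 6.20, 6.50 and 7.33 CPM in control and 15.1, 18.5 and 17.9 CPM in CYT libraries, and the coding gene at 103, 77.8 and 81.3 CPM and at 24.2, 16.6 and 26.6 CPM. The groups were apart for both genes, with log2 fold changes of 1.36 ± 0.31 (SE, adjusted p 0.00978) and -1.96 ± 0.32 (SE, adjusted p 0.00235). AC124016.1 rose by 2.73 and HNRNPD, an AU-rich element binding protein gene, had -2.04. AL109811.2 rose by 3.97 and EXOSC10, a nuclease of the nuclear exosome, had -1.01. AL138724.1 rose by 2.48 and the nuclear pore gene NUP153 had -1.14 on the same log2 scale.

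The other pairs of this kind were AC139530.1 with the ESCRT gene HGS (log2 fold changes 1.66 and -1.33), ZNF213-AS1 with the zinc finger gene ZNF205 (1.93 and -3.17), DDN-AS1 with PRKAG1, a subunit gene of AMP-activated kinase (1.67 and -1.06), and AP001160.3 with TMEM223 (3.07 and -3.09). AP001160.3 lies on the same strand as TMEM223 in GENCODE 29, so it is not antisense to that partner. Both calls of EXOC3, HNRNPD, ZNF205 and TMEM223 and of their antisense genes held with each single library left out. NUP153 lost its call without any single library other than CYT replicate 2 (adjusted p 0.0569 to 0.101). HGS lost it without control replicate 1, control replicate 3 or CYT replicate 1 (0.0914 to 0.118), and CTBP1 without control replicate 1, control replicate 3 or CYT replicate 3 (0.0562 to 0.0797). EXOSC10 lost it without control replicate 1 or 3 or CYT replicate 1 or 3 (0.062 to 0.0871), PRKAG1 without control replicate 2 or 3 or CYT replicate 1 or 3 (0.0625 to 0.108), and PRKAR2A without CYT replicate 3 (0.06). AC139530.1 lost its call without control replicate 2 (0.0694), control replicate 3 (0.0837) or CYT replicate 3 (0.081).

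In 15 pairs both genes rose and in 2 both fell. The 4 with the largest joint change, ranked by the smaller absolute log2 fold change of the pair, are given. AP005329.2 rose from a mean of 2.70 to 52.0 CPM (log2 fold change 4.26 ± 0.37, SE, adjusted p 0.000326), and MYOM1, the gene of a sarcomere protein, went from no count in control to 1.27, 1.57 and 1.51 CPM, at least 7.74-fold higher. AL365181.3 rose with BCAN, a brain proteoglycan gene (log2 fold changes 2.86 and 2.67), and the call of BCAN was lost without control replicate 1 (adjusted p 0.0725), control replicate 2 (0.0584) or CYT replicate 1 (0.0577). AL161772.1 rose with the cytokine gene IL17D (2.27 and 3.10). SLCO4A1-AS1 with SLCO4A1 was the fourth of these pairs and the one that fell.

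The calls are given by how the member lies to its coding gene in GENCODE 29. Of the 83 members that overlap their partner at both starts, head to head with a median distance of 671 bp between the starts, 60 (72.3%) were called higher and 1 was lower, with a median log2 fold change of 2.14. The 19 members without a coding overlap had 13 higher (68.4%) and 1 lower. Their nearest coding gene was a median 192 bp away, within 1000 bp for 16 of them. The 31 members that overlap at both ends, tail to tail, had 11 higher (35.5%), the 17 that span the coding gene 7 higher and 3 lower, and the 27 within it 8 higher (29.6%) and 4 lower. Every control library was under 5 CPM in 44 of the 83 members with overlapping starts and 12 of the 19 without overlap. The same held for 8 of the 31 with overlapping ends, 5 of the 17 spanning and 9 of the 27 within the coding gene. The level that chose the members thus bears on these shares.

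Among the 576 tested antisense genes under 5 CPM, 108 of 183 with overlapping starts (59.0%) were called higher, against 52 of 119 (43.7%) with overlapping ends, 69 of 145 (47.6%) within the coding gene, 44 of 87 (50.6%) without an overlap and 8 of 29 (27.6%) spanning the coding gene. Overlapping starts had the highest share in both sets, while the order of the other positions differed. Of the members with at least 5 CPM in every control library, 8 of 21 with overlapping starts were called higher and 1 lower, and of the 12 within a coding gene 4 were called lower and 8 were not called. The differences between these positions were not tested. The coding partners of the head-to-head members had 18 higher and 8 lower calls of 83, beside the 10.4% higher and 15.6% lower of coding genes at 5 CPM or more.

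**Figure D4:**
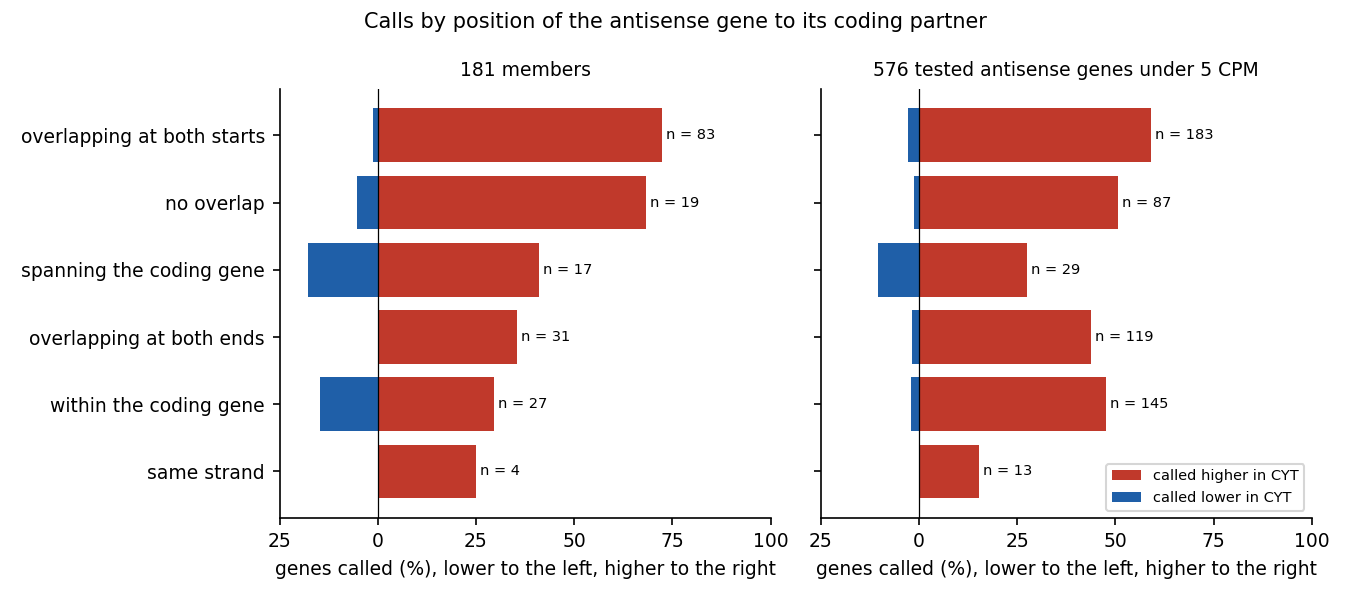
Percentage of genes called higher (red, to the right) and lower (blue, to the left) with CYT by the position of the antisense gene to its coding partner, for the 181 members (left) and the 576 tested antisense genes under 5 CPM (right), with the number of genes beside each bar. Genes overlapping at both starts have the highest share of rises in both panels, 72.3% and 59.0%.

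By annotated exon number, of the 54 members with 1 exon, 39 (72.2%) were called higher, and of the 127 with 2 or more exons, 61 (48.0%), with median log2 fold changes of 2.56 and 1.05. With at least 5 CPM in every control library, 2 of 11 members with 1 exon and 8 of 50 with more exons were called higher. This condition leaves out members that were low in control, so it cannot decide whether the shares differ by exon number. The difference by exon number was not tested.

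Promoters of 1 rising and 1 falling head-to-head member are shown to compare the sequence around the start of the antisense gene itself. Neither window holds the start of the coding gene, and the starts of antisense and coding gene lie 653 bp apart for CTBP1-DT and 2259 bp apart for LOXL1-AS1. RefSeq windows (GRCh38.p14) of 250 bases before to 50 bases after the gene start were matched by symbol for 67 of the 181 members. They are given 5′ to 3′ on the strand of the antisense gene with each CG in capitals. CTBP1-DT is at chr4:1249190-1249489 (+) and LOXL1-AS1 at chr15:73928199-73928498 (-).
CTBP1-DT: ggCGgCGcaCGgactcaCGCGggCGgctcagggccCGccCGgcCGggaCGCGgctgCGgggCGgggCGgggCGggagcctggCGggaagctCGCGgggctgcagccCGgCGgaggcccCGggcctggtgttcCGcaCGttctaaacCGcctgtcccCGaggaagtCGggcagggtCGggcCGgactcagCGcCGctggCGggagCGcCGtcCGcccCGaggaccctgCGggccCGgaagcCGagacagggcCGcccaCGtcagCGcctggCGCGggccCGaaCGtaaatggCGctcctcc
LOXL1-AS1: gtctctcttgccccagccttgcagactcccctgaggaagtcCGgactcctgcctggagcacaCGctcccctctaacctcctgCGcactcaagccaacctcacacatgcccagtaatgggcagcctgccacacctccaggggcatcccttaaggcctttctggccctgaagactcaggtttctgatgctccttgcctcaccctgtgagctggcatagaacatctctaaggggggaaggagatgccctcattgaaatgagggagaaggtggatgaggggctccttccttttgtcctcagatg

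The window of CTBP1-DT, which rose, held 46 CG and that of LOXL1-AS1, which fell, held 3, the lowest count among the named members. Other named members that fell held 39 (SNAI3-AS1), 21 (VPS9D1-AS1), 15 (ENTPD3-AS1) and 13 (SLCO4A1-AS1). Other named members that rose held 54 (KTN1-AS1), 45 (PRKAR2A-AS1) and 34 (NNT-AS1). The median was 25 CG over the 67 members, 28 over 33 members called higher, 18 over 6 called lower and 27 over 28 not called, against 14 over all 27305 RefSeq windows and 22 over 14888 coding genes. A TATA box motif (TATAAA on either strand) was present in 3 of the 67 windows (4.48%) and in 12% of all windows. The CG count was not tested between the calls.

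Genes of the machinery that ends and degrades such RNAs are given beside the members. Of 24 genes of the nuclear exosome, its adaptors, the cap-binding complex and Integrator, 7 were called lower with CYT and the other 17 were not called, with a median log2 fold change of -0.39, beside 12.9% lower over all tested genes and 15.6% over coding genes at 5 CPM or more. Those that fell were the exosome subunit genes EXOSC3, EXOSC5, EXOSC6, EXOSC7 and EXOSC8, the nuclease gene EXOSC10, and INTS11, the endonuclease gene of Integrator. EXOSC8 went from a mean of 31.0 to 11.2 CPM (adjusted p 0.00747) and INTS11 from 112 to 47.0 CPM (0.0223). DIS3, the second nuclease gene of the exosome, stood at 16.9 and 28.6 CPM with an adjusted p of 0.157, and MTREX, the helicase gene of the adaptors, at 28.7 and 27.7 CPM. The part of these levels in the values of the antisense genes was not tested.

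Of 22 tested hosts of small nucleolar RNAs, which the rule left out, 1 was called higher and 6 lower, with a median log2 fold change of -0.22, beside 15.7% higher and 12.9% lower over all tested genes. SNHG1 rose from 49.0 to 152 CPM (adjusted p 0.0152), and SNHG17 fell from 31.5 to 8.39 CPM (0.00242). Of 16 tested genes on a list of antisense and related RNAs with a published role, 6 were called higher and 3 lower, beside the same 15.7% and 12.9% over all tested genes and 49.1% and 2.43% over antisense genes under 5 CPM. Among these, the imprinted antisense RNA KCNQ1OT1 rose from 1.63 to 18.2 CPM (log2 fold change 3.48 ± 0.44, SE, adjusted p 0.000951) and is a member.

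Of the markers of the line, VIM, MSN, AXL and CD44 stood at 111 CPM or more in every library. FOSL1 and SPARC were lower, at 6.48 to 31.2 and 6.91 to 8.97 CPM in the CYT libraries. The 6 markers summed to 2124 to 4837 CPM, and 4 of them were called lower with CYT, beside 12.9% lower over all tested genes and 15.6% over coding genes at 5 CPM or more. The summed level of the 5 genes ESR1, PGR, GATA3, FOXA1 and KRT5, with FOXA1 at up to 9.40 CPM, ran from 6.63 to 13.5 CPM, and that of 7 markers of blood, endothelial and liver cells from 5.48 to 24.7 CPM. CYT replicate 2 was the lowest of its group in 96 members and the highest in 67. Without it 106 members were called higher and 10 lower.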

How the data were processed

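RNA of 3 control and 3 CYT libraries of MDA-MB-231-DR cells was measured by RNA-seq. The authors deposited raw read counts per gene, from reads aligned with Hisat2, and FPKM values by Stringtie. Per the labels, FastQC 0.12.1 and hg38 are named in the submitters' processing notes. The counting program, its use of strand and its annotation are not given in the sources used here. Strands, exons and the position of each member to its partner were taken from GENCODE 29, which holds all 181 members, 178 of them at the deposited locus. The length implied by count and FPKM matched the GENCODE 29 exonic length within 1.5 bp in 87 of the 181 (48.1%). For the others, shared exonic bases and exon numbers may not be those of the exons used in counting. Values per length use the implied length.

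The test was that of edgeR 4.0.16 under R 4.3.3 (TMM, filterByExpr with a minimum count of 10, quasi-likelihood test) over 15572 of 58302 genes, with Benjamini-Hochberg adjustment. Levels are TMM-normalized CPM, while membership and the conditions on single libraries at 5 CPM use counts over the summed gene counts. A standard error is the log2 fold change over the root of its F value. The biological coefficient of variation was 37.5%, and replicates correlated at r from 0.9045 to 0.971. Intervals of count ratios are exact and cover counting error only. Deviations from the group mean of libraries with the same replicate number correlated at 0.188, 0.458 and 0.124. Control replicate 1 with CYT replicate 3 gave 0.303 and control replicate 3 with CYT replicate 1 gave 0.2005. Both lie above the same-number values of those libraries, so a pairing by replicate number is not established. The main test has no block, and the fit with the replicate number as a block is only an alternative. DESeq2 1.42.0, limma 3.58.1 on log2(FPKM + 1) and log2(FPKM + 0.1), other filters and scalings, the replicate block and leaving out each library were alternatives. The test was also run on simulated counts, and the outcome is not given here.

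Members and lists were chosen with earlier results of these data known. The genes named are the 2 markers of the group, the 10 members of highest mean CPM, the 8 of largest rise and 8 of largest fall among called members, all pairs called in opposite directions and the 4 pairs with the largest joint change, each with its partner. Other names are given where they were counted.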

Additional observations from a re-analysis of the deposited data

How the results depend on the processing

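With each single library left out, 85 to 106 members were called higher and 7 to 10 lower. The gain in the summed share was 0.158 to 0.169 percentage points. The ratio to the partner was apart in 93 to 98 pairs upward and 11 to 16 downward (16 without CYT replicate 2). Pairs apart over all 6 libraries stay apart when 1 is left out, so these counts could not fall. DESeq2, upper-quartile scaling, the other filters and limma gave 94 to 105 higher and 7 to 10 lower. Among named genes these settings ended the call of ENTPD3-AS1 (adjusted p 0.062 with upper-quartile scaling and 0.0563 with a mean of 5 CPM as the filter) and called PINK1-AS (0.0477 with DESeq2, 0.0428 with upper-quartile scaling, 0.0472 with limma on log2(FPKM + 1)) and MGAT2 (0.0319 with DESeq2, 0.0405 with upper-quartile scaling). PINK1-AS was also called without CYT replicate 2 (0.0298). With the replicate block 107 were higher and 12 lower, and this fit changed no further call of a named gene beyond PINK1-AS, MGAT2, TBK1 and PCGF2. Upper-quartile scaling moved the median of all genes to 0.155. At 5 CPM or more in every control library, a condition that leaves out members that were low in control, 10 of 61 were higher, and at a mean of 10 CPM, which leaves fewer genes, 42 of 79 were higher and 5 lower. Without shared exons, 9 of 18 pairs had a higher ratio and 0 a lower one, and the partner of highest CPM gave a median difference of 1.31. The fold change reversed in 5 genes that were not called, and the cause was not tested. FGD5-AS1 was at 0.088 with upper-quartile scaling, at 0.0415 with a mean of 5 CPM as the filter, and between -0.28 and 0.21 without 1 library. MIF-AS1 was at 0.0213 with upper-quartile scaling and between -0.57 and 0.36 without 1 library, and LATS1 between -0.81 and 0.0359. HSD17B1 was at 0.0363 with limma on log2(FPKM + 0.1), at 0.0701 with the replicate block and between -0.61 and 0.40 without 1 library. LOXL1 was at -0.0499 without a filter, at -0.0849 and -0.17 with limma, at -0.19 with the replicate block, and between -0.26 and 0.42 without 1 library. With 3 libraries a group no exact test could go below 0.1.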
